A study of Rattus norvegicus with 6 samples.

Results

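The genes described here carry the interferon response and the antigen processing that goes with it: 38 genes, made up of interferon-stimulated genes, the transcription factors that switch them on, and the machinery that loads peptides onto MHC class I. They were chosen by name, for their function, with earlier results of these data known. A gene was measured where the accession of a non-control probe mapped to it, which gave 34 of the 38, among 15645 named genes on the array. Xaf1, Herc6, Gbp4 and Nlrc5 had no such probe and were not analysed here.

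RNA was taken from renal cortex. The rats were male and of the strain Sprague-Dawley, Crl:CD(SD), bought at 5 weeks of age. The 3 treated rats were given the 4,4' form of thiobis(6-tert-butyl-m-cresol), a sulfur-bridged phenolic antioxidant called TBBC below, at 300 mg/kg/day for 4 weeks. The 3 vehicle rats received corn oil for the same 4 weeks. All were fed a basal diet, and each rat gave 1 Cy3-labelled Agilent array. Cortex is a mixture of tubule, glomerular, vascular and immune cells, so the values are averages over all of them.

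Interferons are secreted proteins that bind receptors on almost any cell and act through Jak kinases and Stat transcription factors. Type I interferons bring Stat2 and Irf9 into a complex that binds the interferon-stimulated response element, while interferon gamma induces Irf1. The induced genes block viral replication, modify proteins with the ubiquitin-like protein Isg15, and raise the supply of peptides to MHC class I. In the kidney, both tubule cells and resident leukocytes can carry this response.

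Values are log2 signals relative to the 75th percentile of the same array, so 0 is that percentile and 1 unit is a doubling. The percentile ran from 861 to 982 in the TBBC arrays and from 995 to 1038 in the vehicle arrays, and 67.1% to 70.9% of probes lay well above background on each array. TBBC 1 shared slide 1 with the 3 vehicle arrays, while TBBC 2 and TBBC 3 lay on slide 2. The tissue label was borne out by its markers, all 12 of which were measured, with levels from 0.22 to 8.60. They include the proximal tubule transporters Slc34a1 and Slc22a6 and the thick ascending limb protein Umod. All 34 interferon response genes passed the filter on dim probes, and 33 of them were well above background on all 6 arrays. The exception was Oasl, which missed that mark on 1 TBBC array.

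None of the 34 genes passed an adjusted p of 0.05 in limma's test of TBBC against vehicle, where 0.531% of all 32956 transcripts did. At an unadjusted p under 0.05 there were 7 (Stat2, Irf1, Ifih1, Mx2, Ube2l6, Parp14 and Tapbp), 6 higher and 1 lower in TBBC. Of all transcripts 20.0% had such a p, 9.55% higher and 10.4% lower in TBBC. The share of the 34 was thus near that of all transcripts. The median log2 fold change of the 34 was 0.28, beside -0.02 over all transcripts, with 26 positive and 8 negative values. No gene differed 2-fold between the group means, the extremes being 0.91 for Ube2l6 and -0.56 for Mx2. Under the 20 other settings tried, 0 of the 34 passed in 18, and 2 passed in each of the other 2 (Mx2 and Tapbp in one, Mx2 and Ube2l6 in the other).

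By the brightest tested probe of each gene, a pair of patterns held for 25 of the 34 genes. Other probes of a gene did not always share its pattern. In the first, all 3 TBBC rats lay above all 3 vehicle rats, which held for 9 genes: Stat2, Irf1, Irf9, Ifih1, Eif2ak2, Ube2l6, Parp9, Parp14 and Tapbp. Over all transcripts 28.3% had groups without overlap, 13.1% higher and 15.2% lower in TBBC. Mx2 was the single gene of the 34 that was lower in all 3 TBBC rats. In the second pattern only TBBC 3 lay above the vehicle range, which held for 16 genes, 47.1% of the 34, where 10.9% of all transcripts did so. Besides Mx2, the genes in neither pattern were Bst2, Isg15 and Tap1 (TBBC 1 and TBBC 3 above the vehicle range), Ifi27 and Dtx3l (TBBC 2 and TBBC 3), Rsad2 (TBBC 1 alone), Samhd1 and Cmpk2.

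TBBC 3 therefore set most of the group's values. It was above every vehicle rat in 30 of the 34 genes, against 14 for TBBC 1 and 12 for TBBC 2. Over all transcripts the same shares were 34.3%, 33.2% and 34.4%, so the excess in TBBC 3 did not hold for transcripts at large. The median of the 34 against the vehicle mean was 0.13 in TBBC 1, -0.09 in TBBC 2 and 0.74 in TBBC 3, while the medians over all transcripts lay between -0.05 and -0.01. TBBC 2 was the lowest of the TBBC rats in 25 of the 34, and in 12 of them it lay below the vehicle range while TBBC 3 lay above it, which 8.31% of all transcripts did. Without TBBC 3 the median log2 fold change of the 34 was 0.03, with 18 positive values.

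**Figure D1:**
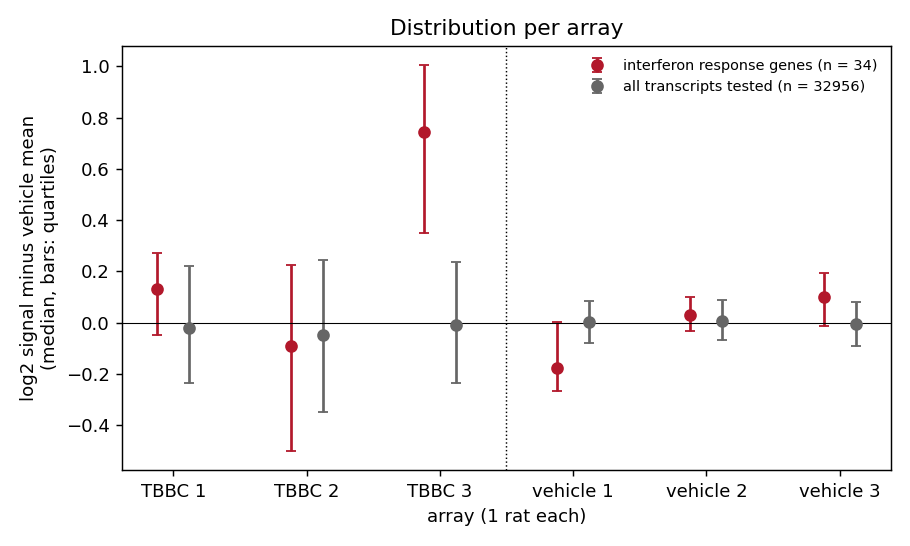
Median and quartiles of the log2 signal minus the vehicle mean on each array, for the 34 interferon response genes (red) and all 32956 transcripts tested (grey). The 34 genes sit at a median of 0.74 in TBBC 3, against 0.13 and -0.09 in TBBC 1 and TBBC 2, while the medians of all transcripts stay near 0.

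The vehicle rats differed among themselves in the same genes, though less. Vehicle 1 was the lowest vehicle rat in 24 of the 34 genes and vehicle 3 the highest in 20, where these arrays had that rank in 33.3% and 32.1% of all transcripts. The median standard deviation of the 34 was 0.44 among TBBC rats and 0.20 among vehicle rats, and it was larger among TBBC rats in 30 of 34. Over all transcripts the medians were 0.23 and 0.13, and the TBBC spread was the larger for 74.3%.

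**Figure D2:**
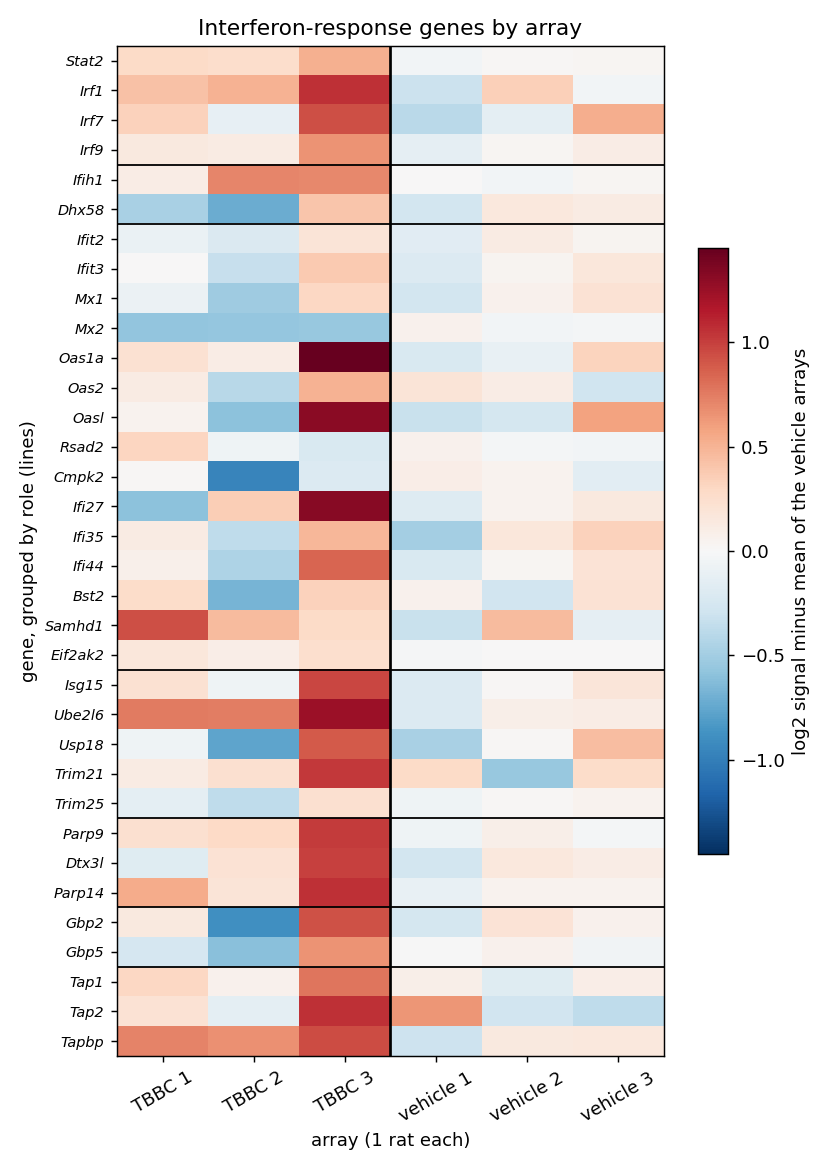
Log2 signal minus the vehicle mean for each of the 34 genes (rows, grouped by role) on each of the 6 arrays (columns, TBBC left of vehicle). TBBC 3 is above all 3 vehicle columns in 30 genes, and the 9 genes whose groups do not overlap with TBBC higher are red in all 3 TBBC columns.

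Markers of leukocytes moved with the same array. Of 16 macrophage and dendritic cell markers measured, all 16 were above the vehicle range in TBBC 3, against 2 in TBBC 1 and 4 in TBBC 2, and their summed signal ran from 113 to 249 in TBBC rats and from 119 to 150 in vehicle rats. Of 17 T and NK cell markers, 15 were above the vehicle range in TBBC 3 and 0 in TBBC 1 and in TBBC 2, with sums from 3.37 to 7.05 in TBBC rats and from 3.79 to 4.93 in vehicle rats. Of 6 pan-leukocyte markers 5 were above it in TBBC 3, and 1 each in TBBC 1 and TBBC 2, with sums from 7.93 to 13.6 in TBBC rats and from 7.52 to 9.94 in vehicle rats. Ptprc, the common leukocyte antigen CD45, was at -0.37, -0.45 and 0.70 in TBBC 1, 2 and 3, against -0.36, 0.11 and -0.02 in vehicle 1, 2 and 3.

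Defining markers of macrophages and T cells were also highest in TBBC 3. Cd68, a macrophage lysosomal protein, was at 1.11, 0.95 and 2.06 in the TBBC rats and at 0.83, 1.33 and 1.35 in the vehicle rats. Cd3e, a chain of the T cell receptor complex, was at -5.34, -5.08 and -3.61 in the TBBC rats and at -5.40, -4.21 and -4.47 in the vehicle rats. Among 4 neutrophil markers 3 were above the vehicle range in TBBC 3, and their summed signal ran from 0.896 to 2.91 in TBBC rats and from 0.895 to 1.58 in vehicle rats. B cell markers were also above it in TBBC 3 for 3 of 5, although their sums, 1.46 to 1.57 in TBBC rats and 1.17 to 2.62 in vehicle rats, did not stand out. Of these leukocyte markers with a probe, Ncr1 alone was not well above background on any array. Neither the part of leukocytes in the interferon values of TBBC 3 nor that of slide 2 was tested, and in bulk tissue more cells of a type cannot be told apart from more RNA per cell.

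Promoters were searched for the sequence that interferon-regulatory factors and the complex of Stat2 and Irf9 bind, because these genes were chosen as targets and parts of that response. RefSeq promoters (build GRCr8) were at hand for 31 of the 38 genes, and the 250 bases before the start site were read on both strands. The core of the interferon-stimulated response element, searched as GAAA, any 2 bases and GAAA, was in 18 of the 31 and in 3.41% of 33469 promoters in all. The gamma-activated site, the palindrome TTCNNNGAA, was in 6 of the 31 and in 7.67% of all promoters. Both were found in Oas1a, Bst2 and Parp14. The response-element core was in 4 of 9 promoters of genes higher in all 3 TBBC rats, and in 8 of 12 promoters of genes above the vehicle range in TBBC 3 alone. The choice of genes by function bears on these counts, and a match is a run of letters, not proof of binding.

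The next windows of 120 bases show both kinds of gene, 5′ to 3′ on the gene's strand, with matches in capitals. Tapbp and Parp14 belong to the genes higher in all TBBC rats, and Oas1a, Ifi44 and Gbp2 to those above the vehicle range in TBBC 3 alone. Tap1 is included because the immunoproteasome gene Psmb9 is its neighbour, on the opposite strand.
Tapbp, GRCr8 chr20:4967878-4967997, minus strand: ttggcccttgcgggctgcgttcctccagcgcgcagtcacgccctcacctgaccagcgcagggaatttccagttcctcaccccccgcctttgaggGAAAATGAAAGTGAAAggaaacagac
Parp14, GRCr8 chr11:78408003-78408122, plus strand: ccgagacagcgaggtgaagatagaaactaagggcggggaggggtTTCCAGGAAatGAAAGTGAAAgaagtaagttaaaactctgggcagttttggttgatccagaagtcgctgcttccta
Oas1a, GRCr8 chr12:41330346-41330465, plus strand: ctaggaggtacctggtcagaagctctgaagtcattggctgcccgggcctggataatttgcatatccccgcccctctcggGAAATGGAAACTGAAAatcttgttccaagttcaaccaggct
Ifi44, GRCr8 chr2:243303841-243303960, minus strand: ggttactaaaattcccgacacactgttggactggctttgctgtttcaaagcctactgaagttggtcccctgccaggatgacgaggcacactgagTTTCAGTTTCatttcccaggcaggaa
Gbp2, GRCr8 chr2:234005607-234005726, plus strand: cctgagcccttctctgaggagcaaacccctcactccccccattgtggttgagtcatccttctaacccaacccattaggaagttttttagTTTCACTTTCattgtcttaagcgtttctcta
Tap1, GRCr8 chr20:4668600-4668719, minus strand: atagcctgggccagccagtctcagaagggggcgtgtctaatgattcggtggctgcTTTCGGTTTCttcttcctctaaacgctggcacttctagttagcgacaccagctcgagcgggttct
In Tapbp and Oas1a, 2 overlapping response-element cores form 1 longer run of capitals. In Parp14 a gamma-activated site and a response-element core lie 2 bases apart. The gamma-activated site of Oas1a lies upstream of the window shown. Where the capitals begin and end with TTTC, as in Ifi44, Gbp2 and Tap1, the core is on the opposite strand.

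Among the transcription factors, all 4 fold changes were positive and none passed. Stat2, a subunit of the complex that type I interferon activates, was at 2.35, 2.32 and 2.59 in TBBC 1, 2 and 3, against 2.03, 2.08 and 2.09 in vehicle 1, 2 and 3. The groups did not overlap, and the log2 fold change was 0.35 ± 0.11 (SE; limma adjusted p = 0.174, unadjusted p = 0.0206). Irf9, the subunit of that complex that contacts DNA, was at -1.37, -1.39 and -0.86 in the TBBC rats and at -1.64, -1.48 and -1.40 in the vehicle rats, so TBBC 1 and TBBC 2 were barely above vehicle 3. The fold change of Irf9 was 0.30 ± 0.18 (limma adjusted p = 0.392). On its second probe TBBC 1 (-1.450) was level with vehicle 3 (-1.449).

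Irf1, the factor through which interferon gamma induces MHC class I genes, was at 2.45, 2.53 and 3.08 in the TBBC rats and at 1.72, 2.37 and 1.99 in the vehicle rats. Its fold change was 0.66 ± 0.24, or 1.58-fold (limma adjusted p = 0.198, unadjusted p = 0.0291). Both of its probes gave a higher mean in TBBC, though on the dimmer one TBBC 2 (-2.06) was level with vehicle 2 (-2.05). Irf7, which amplifies the production of interferon alpha, overlapped between the groups, with 1.64, 1.19 and 2.24 in the TBBC rats and 0.92, 1.17 and 1.83 in the vehicle rats. The widest spread of these 4 genes was therefore in Irf7, in both groups.

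The sensors of viral RNA went apart. Ifih1 (MDA5), which binds long double-stranded RNA, was at -3.37, -2.76 and -2.77 in the TBBC rats and at -3.47, -3.51 and -3.44 in the vehicle rats. TBBC 1 was close to the vehicle rats and TBBC 2 and TBBC 3, both of slide 2, were about equally above them, with a fold change of 0.51 ± 0.19 (limma adjusted p = 0.207, unadjusted p = 0.0327). Within slide 1 the difference was 0.10. Dhx58 (LGP2), a helicase that tunes MDA5 signalling, was at -2.38, -2.63 and -1.50 in the TBBC rats and at -2.18, -1.75 and -1.79 in the vehicle rats. On this brightest probe TBBC 1 and TBBC 2 were below the vehicle range and TBBC 3 above it. On the other Dhx58 probes TBBC 3 lay within the vehicle range, at -3.80 (vehicle -4.23 to -3.58) and -2.71 (vehicle -3.00 to -2.54).

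Of the antiviral effectors 15 of 16 were measured, and 10 had positive and 5 negative fold changes. Their array medians were 0.07, -0.37 and 0.34 in TBBC 1, 2 and 3. The 2'-5'-oligoadenylate synthetase Oas1a, which makes the activator of RNase L, was at 0.82, 0.71 and 2.05 in the TBBC rats and at 0.38, 0.49 and 0.92 in the vehicle rats. TBBC 3 was 1.45 above the vehicle mean and both other TBBC rats were within the vehicle range. Both Oas1a probes had this pattern.

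The related genes Oasl and Oas2 had TBBC 3 on top as well. Oasl, an oligoadenylate synthetase-like protein, was at -4.91, -5.56 and -3.65 in the TBBC rats and at -5.29, -5.22 and -4.38 in the vehicle rats. Oas2, another family member, was at -3.26, -3.77 and -2.87 in the TBBC rats and at -3.19, -3.27 and -3.66 in the vehicle rats. Members of the Oas, Ifit, Mx and Gbp families resemble one another in sequence, so a probe may take up some signal of a relative.

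Ifi27, a small mitochondrial and membrane protein, ranged widely among TBBC rats, at 4.28, 5.23 and 6.20 against 4.68, 4.92 and 5.02 in the vehicle rats. TBBC 1 was below the vehicle range and TBBC 2 and TBBC 3 above it, and its second probe had the same order. Ifi44 was at -0.12, -0.64 and 0.65 in the TBBC rats and at -0.42, -0.17 and 0.00 in the vehicle rats, with the same rank of the TBBC rats on all 3 of its probes. Both genes are widely used as readouts of interferon exposure.

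The classical effectors Ifit3, Ifit2 and Mx1 had group means that lay within 0.10 of each other on their brightest probes. Ifit3, which binds and stabilises the cap-sensing protein Ifit1, was at -2.65, -2.99 and -2.28 in the TBBC rats and at -2.85, -2.62 and -2.49 in the vehicle rats. Mx1, a GTPase that blocks influenza virus in the rodent nucleus, was at 1.82, 1.39 and 2.21 in the TBBC rats and at 1.64, 1.97 and 2.12 in the vehicle rats. Ifit2 was at -1.90, -2.00 and -1.60 in the TBBC rats and at -1.96, -1.67 and -1.75 in the vehicle rats. On these probes TBBC 3 was just above and TBBC 2 just below the vehicle range in each of the 3 genes, and the groups overlapped. The second Ifit3 probe again had TBBC 3 above and TBBC 2 below that range. The second Ifit2 probe was at -4.78, -4.28 and -4.42 in the TBBC rats and at -5.46, -5.02 and -4.92 in the vehicle rats. There the groups did not overlap, the difference was 0.64 and TBBC 2 was highest. On the second Mx1 probe TBBC 3 (-3.93) lay within the vehicle range (-4.65 to -3.54).

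Mx2, a cytoplasmic GTPase active against other viruses in the rat, had 2 probes that disagreed. On the brighter probe the signal was 5.74, 5.76 and 5.76 in the TBBC rats and 6.37, 6.27 and 6.29 in the vehicle rats. The fold change there was -0.56 ± 0.09 (limma adjusted p = 0.0673, unadjusted p = 0.000847), the smallest p of the 34 genes, and the TBBC rats were nearly equal. On the dimmer probe the signal was -3.62, -3.55 and -2.96 in the TBBC rats and -3.71, -3.95 and -3.63 in the vehicle rats, a difference of 0.39 the other way, and here too the groups did not overlap. With the mean of both probes in place of the brighter one the fold change was -0.08, so no direction is given for Mx2. Its adjusted p ran from 0.0185 to 0.767 over the 20 other settings.

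**Figure D3:**
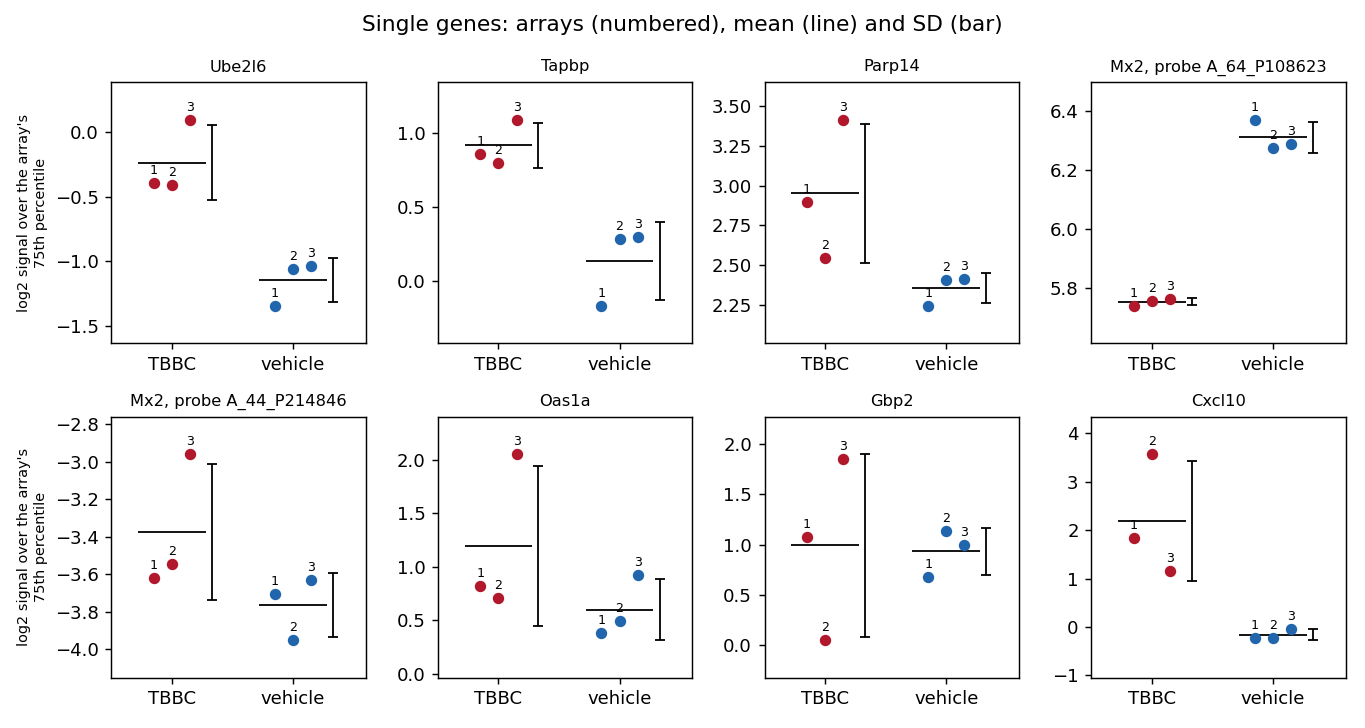
Log2 signal over the array's 75th percentile in TBBC (red, left) and vehicle rats (blue, right) for Ube2l6, Tapbp, Parp14, both Mx2 probes, Oas1a, Gbp2 and Cxcl10, with the array number beside each point, the mean as a line and the SD as a bar (n = 3). The groups separate for Ube2l6, Tapbp, Parp14 and Cxcl10, the Mx2 probes point in opposite directions, and TBBC 3 is highest for Oas1a and Gbp2 but lowest of the TBBC rats for Cxcl10.

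Samhd1, Rsad2 and Cmpk2 were the effectors that, by the brightest probe, did not have TBBC 3 as the highest TBBC rat. Samhd1, a dNTP hydrolase that restricts retroviruses, was at -1.74, -2.22 and -2.41 in the TBBC rats and at -3.01, -2.22 and -2.82 in the vehicle rats (0.56 ± 0.26, limma adjusted p = 0.300). On the second Samhd1 probe TBBC 3 was highest, at -4.73 against -4.97 in TBBC 1 and -5.44 in TBBC 2. Rsad2 (viperin), a radical SAM enzyme, was at 1.33, 0.95 and 0.80 in the TBBC rats and at 1.08, 0.99 and 0.97 in the vehicle rats. Its divergent neighbour on chromosome 6, Cmpk2, encodes a mitochondrial nucleotide kinase and was at 0.16, -0.81 and -0.05 in the TBBC rats and at 0.24, 0.20 and -0.01 in the vehicle rats. By the brightest probe, TBBC 3 lay below the vehicle range in both neighbours, unlike in any other gene of the 34 except Mx2. On the second tested probe of each, TBBC 3 lay within that range. It was at -0.21 for Rsad2 (vehicle -0.34 to 0.04) and at -2.69 for Cmpk2 (vehicle -2.80 to -2.64).

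Eif2ak2 (PKR), the kinase that halts translation on double-stranded RNA, had the smallest difference among the genes without overlap, by their brightest probes. It was at -0.25, -0.32 and -0.17 in the TBBC rats and at -0.43, -0.41 and -0.41 in the vehicle rats, or 0.17 ± 0.10 (limma adjusted p = 0.386). On its second probe the difference was 0.41 and the groups overlapped, with TBBC 1 (-2.36) below vehicle 3 (-2.32). Bst2 (tetherin), which holds budding virions on the cell surface, was at 2.11, 1.17 and 2.19 in the TBBC rats and at 1.91, 1.57 and 2.06 in the vehicle rats. Ifi35 was at 1.06, 0.58 and 1.42 in the TBBC rats and at 0.45, 1.10 and 1.27 in the vehicle rats. The last pair had TBBC 2 as the lowest TBBC rat and overlapped between the groups.

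The Isg15 system held the gene with the largest fold change of the 34. Ube2l6, the conjugating enzyme that carries Isg15 to its targets, was at -0.40, -0.41 and 0.10 in the TBBC rats and at -1.34, -1.06 and -1.03 in the vehicle rats. The groups did not overlap, and the fold change was 0.91 ± 0.18, or 1.88-fold (limma adjusted p = 0.0829, unadjusted p = 0.00196). Over the 20 other settings its adjusted p ran from 0.0463 to 0.310. Within slide 1 the difference was 0.75. Ube2l6 had only 1 probe, so its values could not be compared with those of another.

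The modifier Isg15 itself had a different pattern from its conjugating enzyme. It was at 0.62, 0.33 and 1.37 in the TBBC rats and at 0.20, 0.41 and 0.57 in the vehicle rats, which overlapped (0.38 ± 0.28, limma adjusted p = 0.497). Usp18, the protease that removes Isg15 and dampens the type I receptor, was at -2.03, -2.73 and -1.07 in the TBBC rats and at -2.43, -1.94 and -1.51 in the vehicle rats. Both were highest in TBBC 3 and lowest among the TBBC rats in TBBC 2. Usp18's 3 probes shared this order.

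The ubiquitin ligases of the set overlapped between groups. Trim21, a cytosolic antibody receptor, was at -4.51, -4.40 and -3.61 in the TBBC rats and at -4.35, -5.18 and -4.36 in the vehicle rats. Trim25, a ligase that helps to activate the RNA sensor RIG-I, was at 2.68, 2.44 and 3.05 in the TBBC rats and at 2.75, 2.83 and 2.86 in the vehicle rats. For Trim25 TBBC 1 and TBBC 2 were below the vehicle range, while for Trim21 they were within it.

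The 3 genes of the Parp9 complex lie side by side on chromosome 11 and all had positive fold changes. Parp14, a mono-ADP-ribosyltransferase, was at 2.90, 2.55 and 3.42 in the TBBC rats and at 2.24, 2.41 and 2.41 in the vehicle rats (0.60 ± 0.23, limma adjusted p = 0.216, unadjusted p = 0.0359). Its 4 probes all gave a higher mean in TBBC, by 0.60 to 0.75. Parp9 was at -1.22, -1.16 and -0.45 in the TBBC rats and at -1.52, -1.37 and -1.48 in the vehicle rats (0.51 ± 0.22, limma adjusted p = 0.268). Dtx3l, the ubiquitin ligase that pairs with Parp9 and starts beside it on the opposite strand, was at -4.75, -4.37 and -3.59 in the TBBC rats and at -4.84, -4.43 and -4.47 in the vehicle rats. By the brightest probes only Dtx3l of this cluster overlapped, through TBBC 1. The second Dtx3l probe did not overlap, at -4.43, -4.77 and -3.59 in the TBBC rats and -5.27, -4.79 and -5.04 in the vehicle rats. The difference there was 0.77. On 1 of the dimmer Parp14 probes the groups overlapped, with TBBC 2 (-1.62) below vehicle 3 (-1.51).

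The guanylate-binding proteins, interferon gamma-induced GTPases that attack the membranes of intracellular pathogens, were split between TBBC 2, below the vehicle range for both genes, and TBBC 3, above it for both. Gbp2 was at 1.07, 0.05 and 1.86 in the TBBC rats and at 0.68, 1.13 and 0.99 in the vehicle rats. Gbp5, which also promotes inflammasome assembly, was at -1.94, -2.30 and -1.03 in the TBBC rats and at -1.70, -1.62 and -1.75 in the vehicle rats. The means of the groups differed by 0.06 for Gbp2 and -0.07 for Gbp5, while TBBC 2 was 0.89 below and TBBC 3 0.92 above the vehicle mean for Gbp2.

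The peptide-loading genes had positive fold changes in 3 of 3. Tapbp (tapasin), which bridges the peptide transporter and MHC class I, was at 0.86, 0.80 and 1.09 in the TBBC rats and at -0.16, 0.29 and 0.30 in the vehicle rats. The groups did not overlap, and the fold change was 0.78 ± 0.17, or 1.71-fold (limma adjusted p = 0.0937, unadjusted p = 0.00310). Over the 20 other settings its adjusted p ran from 0.0492 to 0.320, and within slide 1 the difference was 0.72. Tapbp too had only 1 probe. The transporter subunits that tapasin binds were less uniform.

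Tap1 was at -1.30, -1.54 and -0.82 in the TBBC rats and at -1.51, -1.78 and -1.51 in the vehicle rats (0.38 ± 0.20, limma adjusted p = 0.357). Tap2 was at 1.13, 0.77 and 1.98 in the TBBC rats and at 1.55, 0.63 and 0.55 in the vehicle rats, with vehicle 1 well above the other vehicle rats on both probes. Both subunits were highest in TBBC 3. Psmb8 and Psmb9, immunoproteasome subunits that lie beside Tap1 and Tap2 on chromosome 20, had TBBC 3 on top too, at 1.97 and 2.03 against vehicle values of 0.55, 1.06 and 0.97 for Psmb8 and 1.08, 1.58 and 1.36 for Psmb9.

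Of 25 further genes of the immunoproteasome, MHC class I and its chaperones, 0 passed and 8 were higher at an unadjusted p under 0.05. Over all transcripts 9.55% were higher at such a p. The 8 included ER chaperones besides class I and proteasome genes. The list had a median log2 fold change of 0.34 and 22 positive values. RT1-A2, a classical class I heavy chain, was at 4.50, 4.53 and 4.55 in the TBBC rats and at 3.76, 3.93 and 3.95 in the vehicle rats (0.65 ± 0.10, limma adjusted p = 0.0605). Psmb10, an immunoproteasome subunit, was at 3.33, 3.62 and 3.58 in the TBBC rats and at 2.58, 2.84 and 2.32 in the vehicle rats (0.93 ± 0.17, limma adjusted p = 0.0741). Psme2, a subunit of the proteasome activator PA28, differed by 0.43 ± 0.10 (limma adjusted p = 0.106). In RT1-A2 and Psmb10 the TBBC rats were close together, the groups did not overlap and TBBC 3 did not stand apart.

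B2m, the light chain shared by all class I molecules, was not higher, at 7.13, 7.31 and 7.53 in the TBBC rats and 7.58, 7.67 and 7.54 in the vehicle rats (-0.27 ± 0.13, limma adjusted p = 0.314). Class I heavy chains are near-identical in sequence, so the RT1 probes may share signal. By array, the median of the list was 0.35 for TBBC 1, 0.10 for TBBC 2 and 0.44 for TBBC 3.

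MHC class II genes, which interferon gamma also induces, had the opposite sign. Of 12 measured, 0 passed, 11 of 12 fold changes were negative and 4 were lower at an unadjusted p under 0.05, with a median of -0.80. Over all transcripts 10.4% were lower at such a p. Ciita, the master activator of class II, was at -2.64, -2.82 and -2.31 in the TBBC rats and at -1.52, -1.45 and -2.13 in the vehicle rats (-0.89 ± 0.23, limma adjusted p = 0.121). Cd74, the invariant chain, was at 4.82, 4.61 and 5.58 in the TBBC rats and at 6.14, 5.75 and 5.68 in the vehicle rats (-0.85 ± 0.28, limma adjusted p = 0.171). The array medians were -1.05, -1.26 and 0.04 in TBBC 1, 2 and 3, so the median was low in TBBC 1 and TBBC 2 and near the vehicle mean in TBBC 3. For Ciita and Cd74, however, TBBC 3 too was below every vehicle rat.

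**Figure D4:**
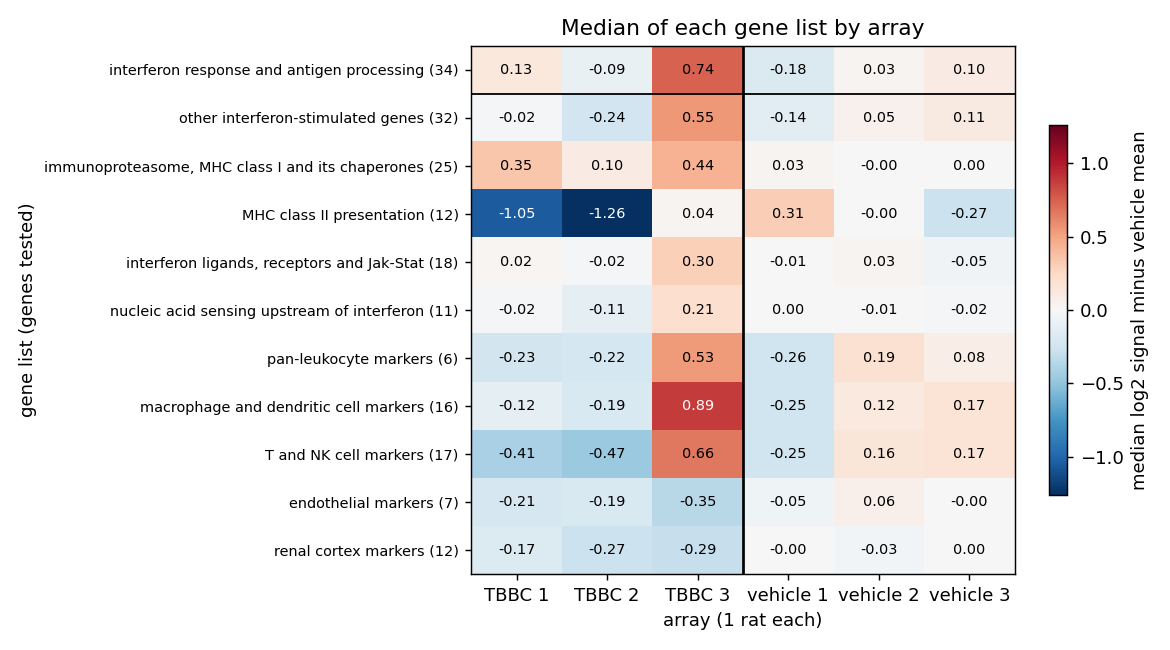
Median log2 signal minus the vehicle mean for 11 gene lists (rows, with the number of genes measured) on each array (columns, TBBC left of vehicle), with the value in each cell. TBBC 3 has the highest value among the TBBC rats for the interferon, MHC and leukocyte lists, class II is at -1.05 and -1.26 in TBBC 1 and TBBC 2, and the endothelial and renal cortex lists lie slightly below 0 in all TBBC rats.

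Upstream of these genes, 18 ligands, receptors and Jak-Stat genes were measured, 0 passed, and 2 were higher and 0 lower at an unadjusted p under 0.05. Over all transcripts these shares were 9.55% and 10.4%. Ifnb1, Ifnk and Ifng were not well above background on any array, so for these ligands the arrays give only an upper bound. The receptor chains Ifnar1 (0.31 ± 0.15, limma adjusted p = 0.316), Ifngr1 (0.17 ± 0.18, adjusted p = 0.659) and Ifngr2 (0.22 ± 0.11, adjusted p = 0.321) had positive fold changes that did not pass, and Il10rb, a chain of the interferon lambda receptor, a negative one (-0.11 ± 0.12, limma adjusted p = 0.659).

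The 2 genes at an unadjusted p under 0.05 were Stat3 and its feedback inhibitor Socs3, both better known downstream of the interleukin 6 family. Stat3 was at 2.67, 3.66 and 2.73 in the TBBC rats and at 2.28, 2.33 and 2.17 in the vehicle rats (0.76 ± 0.27, limma adjusted p = 0.201). Socs3 was at -1.29, -0.86 and -1.12 in the TBBC rats and at -1.46, -1.35 and -1.70 in the vehicle rats (0.41 ± 0.16, limma adjusted p = 0.220). Both were highest in TBBC 2, which was the lowest of the TBBC rats in 25 of the 34 interferon response genes.

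Of 11 genes of nucleic acid sensing upstream of interferon, 0 passed. At an unadjusted p under 0.05, 1 was lower and 0 higher, beside 10.4% and 9.55% of all transcripts. That gene was Irf3, the factor that induces interferon beta, at 4.95, 4.80 and 5.04 in the TBBC rats and 5.25, 5.18 and 5.19 in the vehicle rats (-0.28 ± 0.11, limma adjusted p = 0.228). The adaptor Mavs, which relays the signal of Ifih1, was at -0.32 ± 0.17 (limma adjusted p = 0.359).

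Among 32 other interferon-stimulated genes 0 passed, and 4 were higher and 0 lower at an unadjusted p under 0.05. Over all transcripts these shares were 9.55% and 10.4%. The median of the 32 genes was 0.09. Their array medians of -0.02, -0.24 and 0.55 in TBBC 1, 2 and 3 had the same order as the 34 genes, and 27 of the 32 were above the vehicle range in TBBC 3. Cxcl10, a chemokine that draws T cells and is named for its induction by interferon gamma, did not have this order. It was at 1.84, 3.56 and 1.16 in the TBBC rats and at -0.23, -0.23 and -0.03 in the vehicle rats (2.36 ± 0.58, limma adjusted p = 0.114). Its highest value was in TBBC 2 and its lowest among the TBBC rats in TBBC 3. Isg20, an exonuclease, was at -0.38, -0.08 and -0.38 in the TBBC rats and at -1.32, -1.06 and -0.62 in the vehicle rats (0.72 ± 0.20, limma adjusted p = 0.139), again without TBBC 3 standing apart.

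Endothelial markers were not high in TBBC 3. Of 7 measured, 0 passed and 1 was above the vehicle range in each TBBC rat, and their summed signal ran from 69.2 to 80.9 in TBBC rats and from 81.9 to 85.7 in vehicle rats. The renal cortex markers summed to between 1149 and 1219 in TBBC rats and between 1406 and 1519 in vehicle rats, with 0 of 12 past the threshold. At an unadjusted p under 0.05, 2 endothelial markers (Emcn, -0.48, and Pecam1, -0.27) were lower and 0 higher. The same held for 2 cortex markers (Lrp2, -0.37, and Umod, -0.91). Over all transcripts 10.4% were lower at such a p.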

How the data were processed

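Each deposited scanner file lists a background-subtracted intensity for every spot. Per the file headers it was made by Feature Extraction 10.7.1.1, which the submitters' processing notes give as 10.7. The authors' deposited value table holds a linear ratio, which matched this intensity over the array's 75th percentile within 0.3%. Control spots were left out and signals divided by the 75th percentile over 61537 probes, then put on the log2 scale. Accessions found in RefSeq's gene table (assembly GRCr8) named 28206 probes. The files name another build (rn4), so the only coordinates given are those of the RefSeq promoters. Probes entered the test if all unflagged arrays of either group had them well above background. Each gene took its brightest such probe, and unnamed probes stood alone, which gave 32956 transcripts.

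Groups were compared with limma 3.58.1 in R 4.3.3 (two-sided, Benjamini-Hochberg over all transcripts, threshold 0.05). Errors are standard errors of that fit. With 3 arrays a group, precision is limited, and 1 spread is assumed for both groups. All 34 measured genes are named. Of each other list at most the 3 genes of smallest p are named, besides Ptprc, Cd3e, Cd68, Psmb8, Psmb9, B2m, Cxcl10, the measured interferon receptor chains (Il10rb added after its values were seen) and the cortex markers, whatever their values; 1 gene of this rule is not reported here. The genes and lists were chosen with earlier results of these data known. No p is given over a list. The method was tested on simulated data.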

Additional observations from a re-analysis of the deposited data

How the results depend on the processing

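Of the 34 genes, 18 kept their sign under all 20 alternatives, among them the 10 whose groups did not overlap. With normexp background correction (offset 50) 2 genes passed the threshold, Mx2 (limma adjusted p = 0.0289) and Tapbp (0.0492), and 761 transcripts passed in place of 175. There 11 of the 34 were at an unadjusted p under 0.05, beside 20.8% of all transcripts. With eBayes using trend and robust fitting 2 passed, Mx2 (limma adjusted p = 0.0185) and Ube2l6 (0.0463), and 1087 transcripts. The number of transcripts past the threshold was 52 with no filter on dim probes, 48 with slide as a fixed term, 64 within the slide that holds both groups and 0 with the replicate number as a block, where 5366 were at an unadjusted p under 0.05. No sign was seen that the numbers in the titles pair the rats: same-numbered rats' deviations from their group means correlated at -0.09, 0.03 and -0.07, and not every rat correlated best with its own number. With 3 rats a group these correlations cannot exclude pairing. The replicate block left 0 of the 34 genes past the threshold and 8 at an unadjusted p under 0.05, beside 16.3% of all transcripts. With slide as a fixed term 4 were at an unadjusted p under 0.05, beside 13.8% of all transcripts. In that fit and within the shared slide the group difference rests on TBBC 1, so the medians of 0.13 there are those of that rat. With 1 array left out in turn, 6 to 263 transcripts passed and 0 of the 34 genes. Of the 34, 3 to 8 were then at an unadjusted p under 0.05 (3 without vehicle 1 and 3 without vehicle 3). The share of all transcripts at such a p was 13.1% to 23.7%. Groups without overlap were found in 11 to 14, or 32.4% to 41.2% of the 34, while the share over all transcripts was 34.5% to 44.2%. The median log2 fold change of the 34 then ran from 0.03 without TBBC 3 to 0.41 without TBBC 2.

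Sign changes were in genes whose fold change was small or rested on 1 array. In both slide fits, the fixed term and the shared slide alone, the values were 0.0118 for Cmpk2, -0.59 for Ifi27, 0.27 for Bst2, -0.0663 for Usp18 and -0.17 for Dtx3l. Bst2 was at 0.0149 with normexp, 0.0199 with array weights and 0.0251 with slide as a random block, and Rsad2 at -0.00978 with normexp. With the mean of a gene's probes Ifit2 was at 0.30, Ifit3 at -0.0467 and Usp18 at -0.0287, as their probes differed in sign. With 1 array left out in turn, the ranges were -0.15 to 0.0443 for Ifit2, -0.16 to 0.19 for Ifit3, -0.30 to 0.10 for Mx1, -0.14 to 0.31 for Oas2, -0.28 to 0.68 for Oasl, -0.14 to 0.13 for Rsad2, -0.12 to 0.84 for Ifi27, -0.17 to 0.30 for Ifi35, -0.19 to 0.46 for Ifi44, -0.20 to 0.30 for Bst2, -0.42 to 0.41 for Usp18, -0.26 to 0.0484 for Trim25, -0.38 to 0.53 for Gbp2 and -0.43 to 0.20 for Gbp5. The cause of these changes was not tested. The counts of groups without overlap under other settings were chosen after seeing the data.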
